A study of Mus musculus with 6 samples.

Results

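The cells described here are those that the deposited annotation of T and NK cells names naive_CD8T, in the libraries of PBS, mono-IL10 and IL10/2-Trikine treated mice. They numbered 200 of 2084 annotated cells, of which 38 (of 516 annotated) came from PBS, 160 (of 843) from mono-IL10 and 2 (of 725) from IL10/2-Trikine mice. A mouse of origin, read from hashtag antibodies, was given for 154 of the 200 cells, with 31 of these from PBS, 121 from mono-IL10 and 2 from IL10/2-Trikine mice.

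The mice carried subcutaneous tumors of 6694c2vTRP1 cells, a mouse pancreatic ductal adenocarcinoma line. They were injected intraperitoneally with PBS as vehicle, with mono-IL10 (IL-10 engineered as a monomer, 26 µg per mouse) or with IL10/2-Trikine (a fusion that engages the IL-10 receptor and also the IL-2 receptor beta chain, 30.6 µg per mouse). All groups received 2 doses, every other day from day 8 after implantation, and tumors were taken on day 14. Leukocytes were enriched with CD45 beads, hashtags marked the cells of each animal and 5 animals were pooled into 1 droplet library per treatment, so that treatment and library cannot be told apart in any comparison below. The methods of the study give C57BL/6 mice of both sexes as hosts of this line, while the age of the sequenced animals is not given in the sources used here. All comparisons with PBS share the same PBS mice.

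A naive CD8 T cell has not yet met its antigen. It circulates through lymph nodes by means of the chemokine receptor Ccr7, is held in a quiescent state by transcription factors such as Lef1 and Tcf7, and lives on IL-7 through Il7r. After activation CD8 T cells lower these genes and make granzymes and chemokines such as Ccl5, and memory cells keep part of both programs. IL-10 binds a receptor of Il10ra and Il10rb and signals mainly through STAT3.

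Transcripts of the CD8 coreceptor and of the T cell receptor complex were present in these cells, while the naive part of the label was not borne out by the most abundant markers. At least 1 UMI (unique molecular identifier, a counted transcript) of Cd8a or Cd8b1 was found in 27 of 38 PBS cells (71.1%) and in 152 of 160 mono-IL10 cells (95%), and Cd4 in 0 and 1 cells. A CD3 chain was detected in 100% of the cells of both libraries. A UMI of Ccr7 or Lef1 was found in 50% of PBS cells and 36.9% of mono-IL10 cells. In naive_CD4T cells this share was 56.7% in PBS and 52.4% in mono-IL10. Among NK cells it was 28.2% in PBS and 34.8% in mono-IL10. These were sequenced deeper, with a median of 3086 UMIs per cell against 2417 in PBS and 4846 against 3254 in mono-IL10.

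The genes with the highest ratio to the other annotated cells were Ccl5, the CD8 coreceptor genes, Fam241a and Gzmk. With the PBS and mono-IL10 libraries weighted equally, Ccl5 stood at 10017 CPM (UMIs of the gene per 1000000 UMIs) against 1954 in all other annotated cells, and it had the highest ratio of all genes with at least 100 CPM. Next came Cd8b1 (624 against 131 CPM), Fam241a (184 against 38.5 CPM), Cd8a (448 against 124 CPM) and the granzyme Gzmk (157 against 36.7 CPM). Ly6c2, a surface antigen of memory CD8 T cells, was at 860 against 303 CPM. These are descriptions, since the cells had been clustered on their expression.

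Some granzymes of activated killer cells were nearly missing. Gzmc stood at 4.45 CPM against 3371 CPM in the other annotated cells, and Gzmd, Gzmg, Gzmf and Gzme at 0. The chemokine Xcl1 was at 83.9 against 1511 CPM and the NK adaptor Tyrobp at 99.2 against 1286 CPM. Against the naive_CD4T cluster, the cells had lower Il7r (149 against 699 CPM) and Tcf7 (79.9 against 368 CPM), besides Cd4 (1.78 against 127 CPM), and higher Gzmb (985 against 305 CPM). The cells are therefore called by their annotation, naive_CD8T, and no state is implied by the name.

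**Figure D1:**
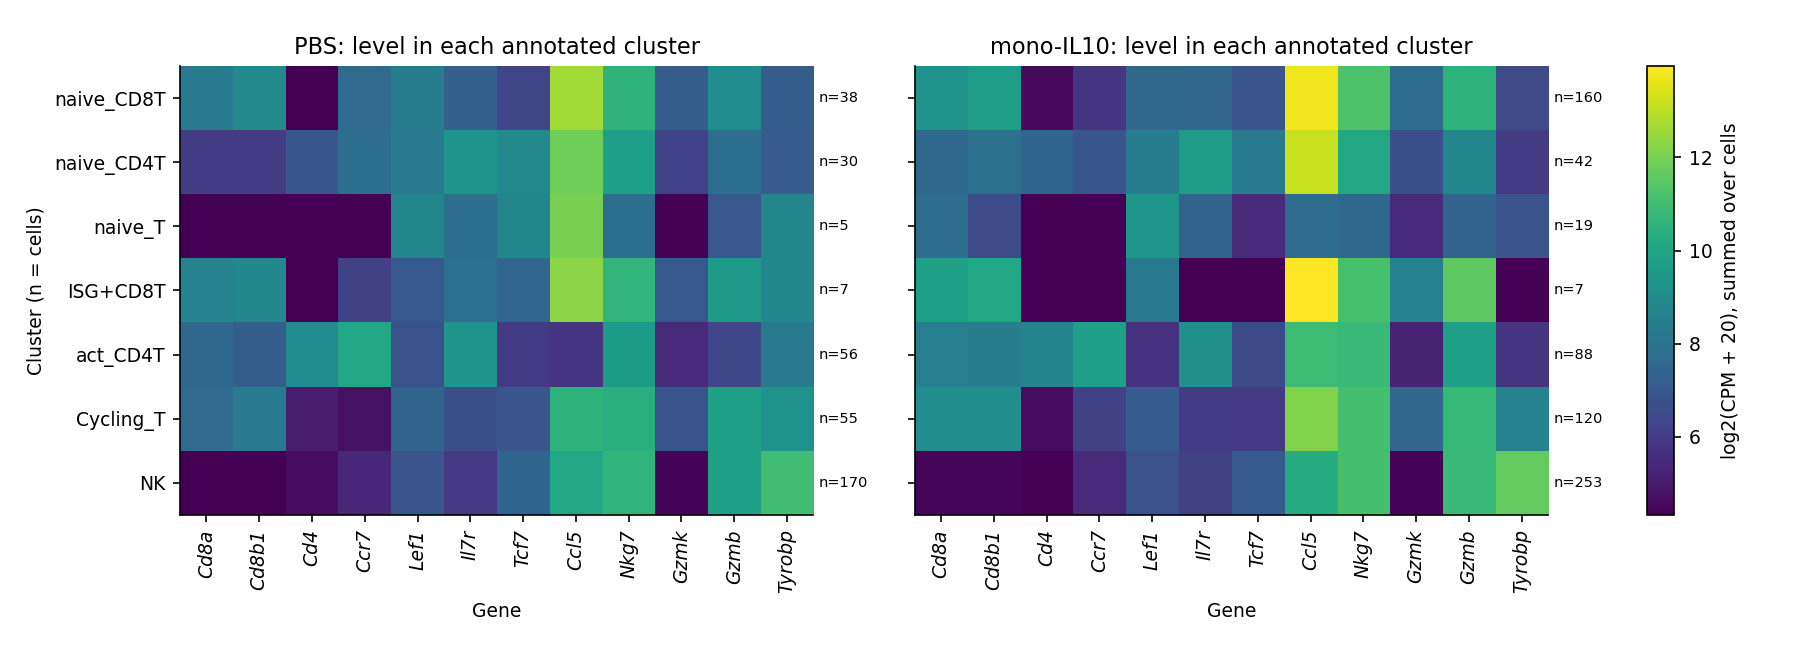
Levels of CD8, naive and effector genes (columns) in 7 of the 12 annotated clusters (rows, with their number of cells) of the PBS (left) and mono-IL10 (right) libraries, as log2(CPM + 20) of counts summed over cells; colors compare clusters for a given gene, not genes with each other. The naive_CD8T cells show Cd8a and Cd8b1 above naive_CD4T and Tcf7 and Il7r below it. Ccl5 is high in both, with 5512 CPM in naive_CD8T (exact 95% Poisson interval 5008 to 6052) and 4873 CPM in naive_CD4T (4240 to 5573) among PBS cells with a mouse, and in mono-IL10 the 7 ISG+CD8T cells have Ccl5 high as well.

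Cells differed within the cluster. A PBS cell held a median of 13.5 Ccl5 UMIs (range 0 to 125) and a mono-IL10 cell 39.5 (range 0 to 222). At least 3 Ccl5 UMIs were present in 27 of 38 PBS cells (71.1%) and in 153 of 160 mono-IL10 cells (95.6%). The PBS part of the cluster thus held a larger share of cells with little Ccl5. Of the 11 PBS cells under 3 Ccl5 UMIs, 7 had a UMI of Lef1 and 5 one of Ccr7, compared with 9 and 2 of the 27 others. In mono-IL10, Lef1 was detected in 3 of 7 cells under 3 Ccl5 UMIs and in 51 of the other 153 (33.3%), and Ccr7 in 1 and 8 cells. The limit of 3 UMIs was chosen after the values were seen and the split is a description. Nkg7, a cytotoxic granule gene, was detected in 92.1% of PBS and 98.1% of mono-IL10 cells, and Gzmb in 42.1% and 78.1%.

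Detection depends on depth, and mono-IL10 cells were deeper. Each cell was therefore reduced at random to 1500 UMIs, which no cell fell short of. Gzmb was then found in 34.2% of PBS and 68.1% of mono-IL10 cells, Cd8b1 in 47.4% and 66.2%, Lef1 in 39.5% and 19.4%, and Ccr7 in 10.5% and 3.1%. NK cells at the same depth gave Lef1 in 14.1% and 10.7% and Ccr7 in 2.9% and 3.2%. In naive_CD8T cells Lef1 was thus more frequent than in NK cells in both libraries. Ccr7 was more frequent in PBS and no more frequent in mono-IL10.

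T cell receptor V genes had been left out of the variable genes by the authors when they clustered the T cells. A UMI of a Trbv gene (the variable segment of the beta chain) was found in 9 of 38 PBS cells, spread over 7 genes. In mono-IL10, 74 of 160 cells (46.3%) had one, spread over 15 of the 35 Trbv genes of the files. Trbv19 was the leading segment in 20 of these 74 cells (27.0%), followed by Trbv29 in 13 and Trbv13-1 in 9. The inverse Simpson index, the number of equally used segments that would give the same diversity, was 7.15 for the 74 cells. In NK cells, which do not rearrange these genes, 1.18% of PBS and 0.791% of mono-IL10 cells had a Trbv UMI. Trav segments of the alpha chain were seen in 11 PBS cells (9 segments) and 48 mono-IL10 cells (29 of 130 segments). Cells per mouse were too few for a test, and a segment is not a clone.

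The share of naive_CD8T cells among T cells differed between all 3 treatments, being highest after mono-IL10 and near 0 after IL10/2-Trikine. T cells were here all annotated cells outside the NK and Cycling_NK clusters, so that cells annotated as NK did not enter the denominator. Cycling_T cells stayed in it, and in IL10/2-Trikine they were 174 of 299. A Trbv UMI was found in 9.20% of these, against 25.5% of Cycling_T cells in PBS and 59.2% in mono-IL10. Whether NK cells lay among them was not tested. In PBS mice 1 to 5, naive_CD8T cells made up 18%, 17.5%, 9.80%, 9.88% and 7.41% of T cells, a mean of 12.5% ± 4.88 (SD, n = 5). In mono-IL10 mice 1 to 5 the shares were 26.6%, 18.2%, 23.1%, 35.6% and 18.6%, a mean of 24.4% ± 7.15 (SD, n = 5). Every mono-IL10 mouse was above every PBS mouse, by a margin of less than a point for the closest pair. The difference of 11.9 percentage points gave p = 0.00794 by an exact two-sided permutation test, the smallest p that 5 mice against 5 allow, and 0.00893 adjusted by Benjamini-Hochberg over 9 tests (3 denominators, 3 pairs of groups).

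IL10/2-Trikine mice were at 2.50%, 1.54%, 0%, 0% and 0%, a mean of 0.808% ± 1.16 (SD, n = 5). No mouse of this group overlapped with either other group. IL10/2-Trikine minus PBS was −11.7 points and IL10/2-Trikine minus mono-IL10 −23.6 points, both with the same exact permutation p of 0.00794 (adjusted 0.00893). Over whole libraries, cells without a mouse included, PBS had 38 of 342 T cells in the cluster (11.1%, exact 95% binomial interval 7.98 to 14.9). Mono-IL10 had 160 of 580 (27.6%, interval 24.0 to 31.4), and IL10/2-Trikine had 2 of 299 (0.669%, interval 0.081 to 2.40). These intervals cover counting error only. The cluster was defined from the expression of the cells, which also differed with treatment (below), so its size and its content were not measured apart. The list of genes used for clustering was not used here.

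The result held with a denominator outside the T and NK annotation. Per 1000 hashtag singlets of the same mouse that passed the gene and mitochondrial filters, naive_CD8T cells numbered 1.86, 1.40, 1.10, 1.65 and 0.508 in the PBS mice, 7.20, 4.78, 2.31, 16.1 and 2.64 in the mono-IL10 mice and 0.140, 0.153, 0, 0 and 0 in the IL10/2-Trikine mice. The means were 1.31 ± 0.528, 6.61 ± 5.66 and 0.0586 ± 0.0803 (SD, n = 5 each). The mono-IL10 value rested in good part on mouse 4, yet its lowest mouse was still above the highest PBS mouse. Differences of 5.30 (mono-IL10 minus PBS), −1.25 (IL10/2-Trikine minus PBS) and −6.55 (IL10/2-Trikine minus mono-IL10) each had an exact permutation p of 0.00794. Without mono-IL10 mouse 4 the first became 2.93 and the last −4.17.

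With NK cells kept in the denominator, the groups of PBS and mono-IL10 mice overlapped. PBS mice were at 15%, 10.9%, 7.04%, 7.14% and 4.88% and mono-IL10 mice at 18.8%, 12.2%, 17.1%, 26.5% and 11.7%. In 3 of 5 mono-IL10 mice the share was above that of every PBS mouse. The difference of 8.26 points had an exact permutation p of 0.0317, and it no longer passed when any of PBS mice 3, 4 and 5 or mono-IL10 mice 1, 3 and 4 was left out (5.94 to 8.28 points).

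**Figure D2:**
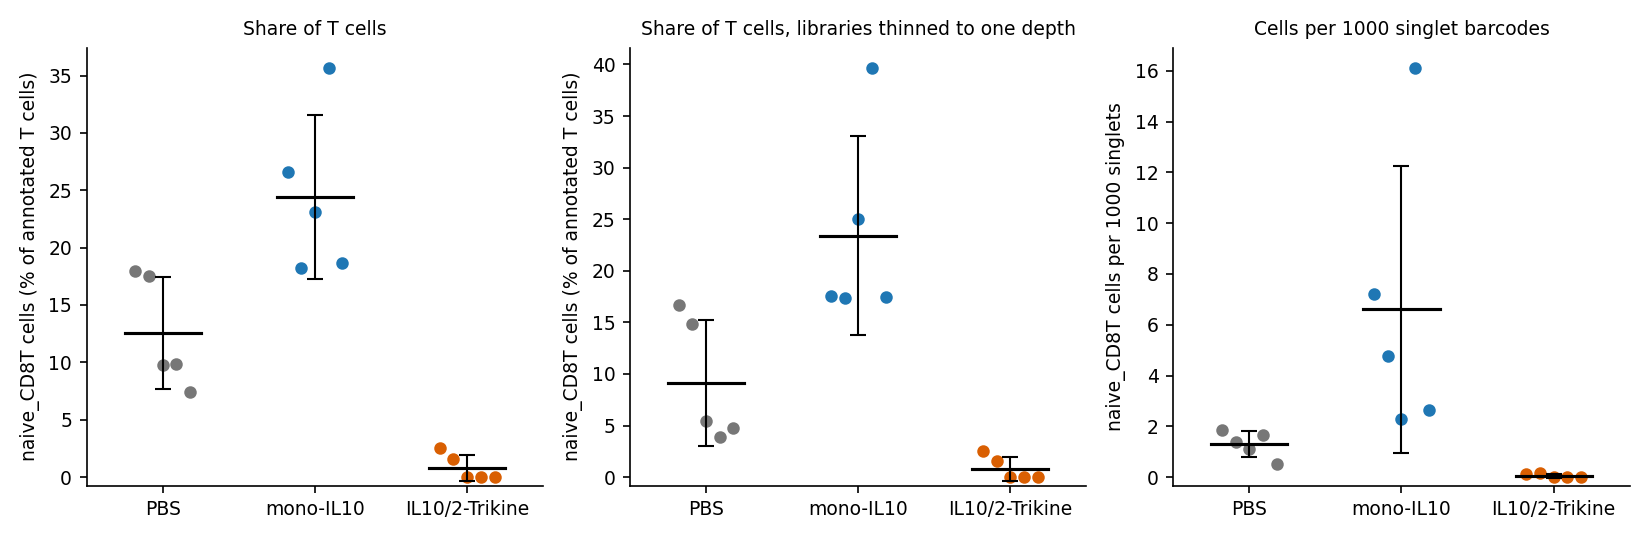
Naive_CD8T cells of each mouse (points) as a percent of its annotated T cells (left), the same after the PBS and mono-IL10 libraries were thinned to the median UMIs per barcode of IL10/2-Trikine (middle) and per 1000 singlet barcodes (right), with the group mean as a horizontal line and the SD as error bars (5 mice per group). Mono-IL10 mice lie above all PBS mice and IL10/2-Trikine mice below all of them in each panel.

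Only barcodes with at least 1000 genes had been annotated, and the cells of this cluster lay close to that limit. In PBS, 28.9% of them had fewer than 1100 genes, against 7.50% in mono-IL10. The IL10/2-Trikine library was the shallowest, and both of its cells were small, with 1312 and 1086 genes. When the PBS and mono-IL10 libraries were thinned before the gene filter, by the ratio of the median UMIs over all barcodes to that of IL10/2-Trikine, 19 of 38 and 98 of 160 naive_CD8T cells still passed it. Shares of T cells were then 9.10% ± 6.12 in PBS and 23.4% ± 9.62 in mono-IL10 (SD, n = 5 each), a difference of 14.3 points (exact permutation p = 0.00794), again with every mono-IL10 mouse above every PBS mouse. The difference of IL10/2-Trikine from PBS shrank to −8.29 points with the same exact permutation p. This thinning, chosen after the values were seen, matched the median of whole libraries and not the depth within each cluster. Among cells with at least 1500 genes, where 92.1% of the PBS cells of the cluster drop out, IL10/2-Trikine minus PBS came to −3.69 points and did not pass (exact permutation p = 0.444).

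Barcodes below the gene limit were also counted by a gate of 1 UMI each of Cd8a or Cd8b1, of a CD3 chain, and of Ccr7 or Lef1. The gate passes 36.8% of the naive_CD8T cells in PBS and 33.1% in mono-IL10, and it passes other clusters too (Cycling_T cells at 18.2% and 41.7%), so its counts are no census of this cluster. Among barcodes with at least 300 but under 1000 genes, 27 of 9327 passed in PBS (2.89 per 1000, exact 95% interval 1.91 to 4.21). In mono-IL10 8 of 6055 passed (1.32 per 1000, interval 0.571 to 2.60), and 48 of 8964 did so in IL10/2-Trikine (5.35 per 1000, interval 3.95 to 7.09). Per mouse the means were 3.69 ± 2.44, 1.83 ± 1.25 and 7.08 ± 3.53 per 1000 (SD, n = 5 each). Below the limit the rate was highest in IL10/2-Trikine, although mouse 1 of that group was at 0.831 per 1000. With at least 2 Cd8 UMIs the rates were 1.61 per 1000 in PBS (interval 0.9 to 2.65) and 2.34 in IL10/2-Trikine (1.45 to 3.58), and these intervals overlap. Above the limit the order was the reverse, since among barcodes with at least 1000 but under 1500 genes PBS had 13.1 per 1000, mono-IL10 31.2 and IL10/2-Trikine 5.43. At 1500 or more genes the rates were 29.5, 59.6 and 12.8 per 1000. Most passing barcodes of that size were outside the T and NK annotation, namely 881 of 899 for PBS, 1186 of 1291 for mono-IL10 and 488 of 495 for IL10/2-Trikine, with 231, 197 and 130 hashtag doublets among those that passed. None of the passing barcodes below 1000 genes was annotated. No test was made on these counts, and whether such barcodes belong to the cluster was not tested.

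**Figure D3:**
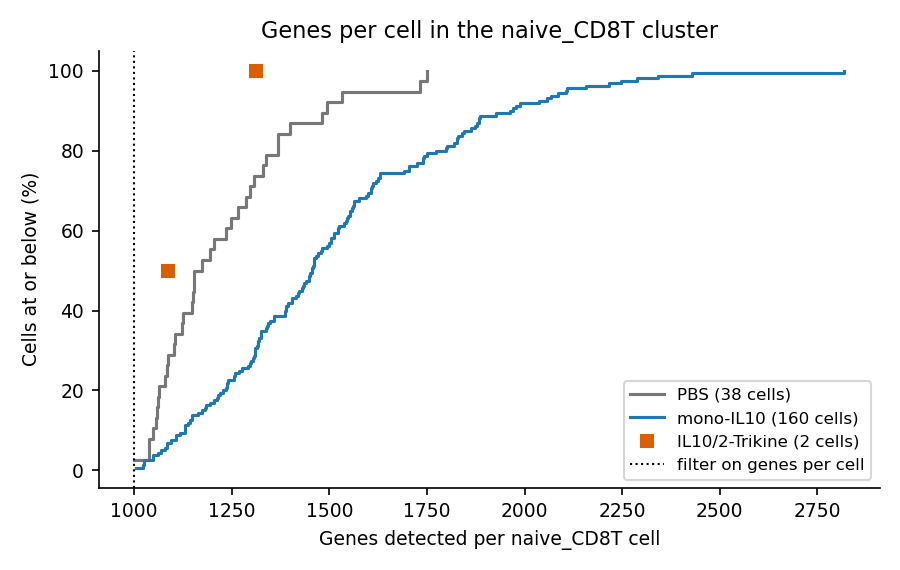
Cumulative percent of naive_CD8T cells (vertical axis) with at most the number of detected genes on the horizontal axis, as lines for PBS (38 cells) and mono-IL10 (160 cells) and as squares for the 2 IL10/2-Trikine cells, with the filter of 1000 genes dotted. The PBS line rises steeply just above the filter (median 1164 genes), while the mono-IL10 line lies to its right (median 1455).

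Naive_CD8T cells of mono-IL10 mice carried more UMIs and more genes than those of PBS mice. Among mice with at least 5 such cells (5 mono-IL10 mice, and 4 PBS mice, since PBS mouse 5 had only 2), the median was 3586 ± 575 UMIs per cell against 2383 ± 169 (SD), a difference of 1203 (exact permutation p = 0.0159, the smallest p 5 against 4 allow, adjusted 0.0238 over 3 tests). Median genes per cell were 1480 ± 98.3 against 1183 ± 89.9 (exact permutation p = 0.0159, adjusted 0.0238). In both measures all 5 mono-IL10 mice were above all PBS mice. The mitochondrial share was 1.65% ± 0.226 against 1.52% ± 0.160 (exact permutation p = 0.381). NK cells of the same libraries moved the same way, with medians of 4846 against 3086 UMIs, while naive_CD4T cells stood at 2482.5 against 2268, so the depth of RNA per cell and the depth of the library cannot be told apart.

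Gene expression was compared between mono-IL10 and PBS on UMI counts summed per mouse over its naive_CD8T cells, with edgeR's quasi-likelihood test over 1434 genes. PBS mouse 5 was left out of this fit, and IL10/2-Trikine was not compared for want of cells. At an adjusted p under 0.05, 8 genes passed (0.558% of those tested), 7 higher after mono-IL10 (0.488%) and 1 lower (0.0697%). Before adjustment 164 genes had a p under 0.05. The median log2 fold change over all genes was 0.03, with 754 genes on the higher and 680 on the lower side. In 38 genes (2.65%) every mono-IL10 mouse was above every PBS mouse, and in 23 (1.6%) every one was below. The genes that passed were the chemokine Ccl5, the granzyme Gzmb, the calcium-binding S100a6, the transcript AW112010, the surface glycoprotein Cd52 and the cytoskeletal genes Tmsb4x and Actb on the higher side, and the chaperone Hsp90aa1 on the lower side.

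Ccl5, a chemokine that attracts T cells and monocytes and is stored by memory CD8 T cells, stood at 5241, 8400, 2409 and 6357 CPM in PBS mice 1 to 4. In mono-IL10 mice 1 to 5 it was at 16117, 12811, 13216, 12688 and 15133 CPM. The groups did not overlap, and the log2 fold change was 1.36 (SE 0.17, edgeR adjusted p = 5.9e-07). Ccl5 also had the highest ratio of the cluster to other cells, and the cells had been clustered on expression.

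Gzmb, the granzyme with which cytotoxic cells trigger apoptosis in their targets, was at 800, 475, 1044 and 163 CPM in the PBS mice and at 1930, 634, 2859, 1688 and 1752 CPM in the mono-IL10 mice. Mono-IL10 mouse 2 fell within the PBS range and the other 4 were above it. The log2 fold change was 1.57 (SE 0.32, edgeR adjusted p = 0.00285), and the call was lost with DESeq2 (adjusted p = 0.0912) and with a minimum count of 10 (edgeR adjusted p = 0.0786). S100a6, a calcium-binding protein of activated and memory T cells, was at 2080, 2642, 3453 and 2010 CPM in PBS and at 4121, 3476, 3234, 4124 and 5211 CPM in mono-IL10. Its groups overlapped by a single mono-IL10 mouse, with a log2 fold change of 0.79 (SE 0.17, edgeR adjusted p = 0.00662). That call was lost without mono-IL10 mouse 4 (edgeR adjusted p = 0.0655) or mouse 5 (0.0892), and with a minimum count of 10 (0.0659).

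AW112010, an interferon-inducible transcript first annotated as noncoding, was at 1720, 1109, 723 and 924 CPM in PBS and at 2990, 2055, 2390, 3401 and 3777 CPM in mono-IL10 mice. Every mono-IL10 mouse was above the PBS range (log2 fold change 1.40, SE 0.22, edgeR adjusted p = 4.25e-05). Cd52, a small GPI-anchored glycoprotein of lymphocytes, was at 2401, 1532, 2570 and 1684 CPM against 3520, 3380, 5155, 3456 and 4528 CPM. Here too the groups were apart (log2 fold change 1.02, SE 0.18, edgeR adjusted p = 0.000362).

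Actb, the cytoplasmic beta actin, was at 2721, 2536, 2730 and 1902 CPM in PBS and at 4067, 3572, 6514, 4174 and 4164 CPM in mono-IL10 mice. In the mice of the fit the groups did not overlap (log2 fold change 0.90, SE 0.17, edgeR adjusted p = 0.000985). Mono-IL10 mouse 3 stood far above the rest of its group. PBS mouse 5, left out with 2 cells, was at 5958 CPM from 29 UMIs, above all mono-IL10 mice but mouse 3. Tmsb4x, which binds actin monomers, was at 13563, 10144, 8030 and 8856 CPM against 17275, 13022, 21183, 15179 and 16657 CPM, with a log2 fold change of 0.76 (SE 0.14, edgeR adjusted p = 0.000701). For Tmsb4x, mono-IL10 mouse 2 was just below the highest PBS mouse of the fit, and PBS mouse 5 was at 15204 CPM from 74 UMIs. In the cells that held a Cd8a or Cd8b1 UMI and no Cd4 UMI, where only PBS mice 1 and 2 kept 5 cells, Tmsb4x and Actb no longer passed (edgeR adjusted p = 0.319 and 0.0823).

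Hsp90aa1, the stress-inducible form of the chaperone HSP90, was at 1040, 792, 562 and 1087 CPM in PBS and at 296, 211, 422, 492 and 250 CPM in mono-IL10 mice. In the fit all mono-IL10 mice were below all PBS mice (log2 fold change −1.29, SE 0.28, edgeR adjusted p = 0.00662). PBS mouse 5, left out of the fit, was at 411 CPM from 2 UMIs, inside the mono-IL10 range. The call was lost without PBS mouse 1 (edgeR adjusted p = 0.0937) or 4 (0.0525), with cells reduced to 1500 UMIs (0.0816) and without a filter on low counts (0.255). The other 7 genes passed at the equal depth of 1500 UMIs as well. The cells had passed the filter of 1000 genes at full depth, before this reduction.

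**Figure D4:**
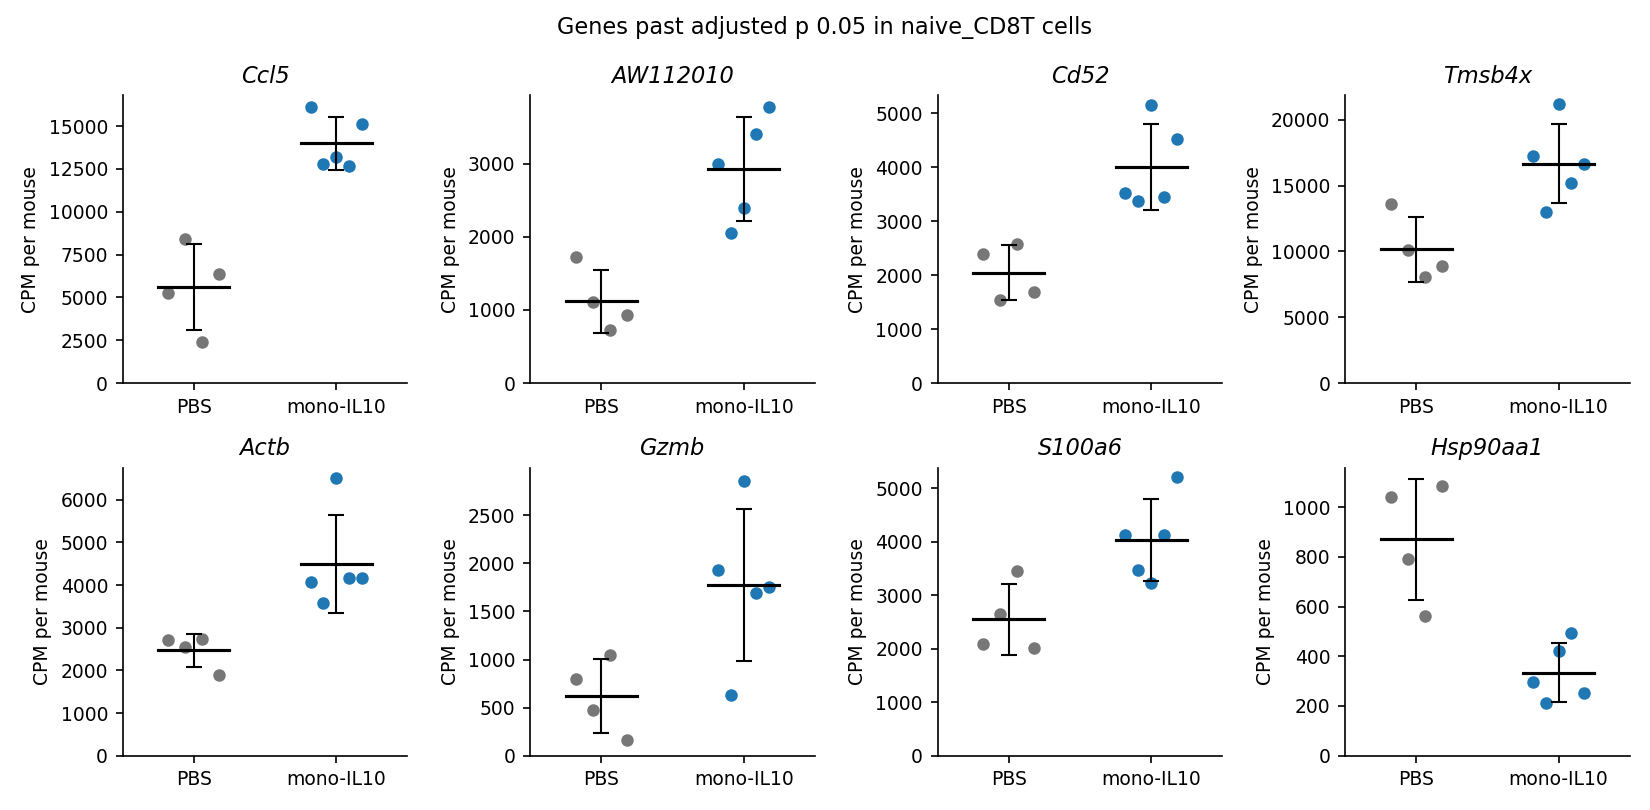
CPM per mouse (points, linear axis from 0) of the 8 genes that passed at an edgeR adjusted p under 0.05 in naive_CD8T cells, for 4 PBS and 5 mono-IL10 mice, with the group mean as a horizontal line and the SD as error bars. PBS mouse 5 is not shown. Ccl5, AW112010, Cd52 and Actb of mono-IL10 mice lie above all PBS mice shown, and Hsp90aa1 lies below them. For Tmsb4x, Gzmb and S100a6 1 mono-IL10 mouse falls within the range of the PBS mice shown.

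Cells without an assigned mouse had not entered the fit, and they numbered 7 in PBS and 39 in mono-IL10. They are no independent replicate, since they came from the same pooled mice and libraries. Ccl5 was at 9686 CPM in PBS (exact 95% Poisson interval 8281 to 11262) and at 13452 CPM in mono-IL10 (12837 to 14089). AW112010 was at 1376 and 2786 CPM, Cd52 at 2063 and 3648, Tmsb4x at 11119 and 15527, Actb at 2637 and 5243, Gzmb at 172 and 794 and S100a6 at 1376 and 3438. All 7 were higher in mono-IL10, by a smaller ratio than in the cells with a mouse for Ccl5, AW112010, Cd52 and Tmsb4x. Hsp90aa1 went the other way, at 344 CPM in PBS (interval 126 to 749) and 599 in mono-IL10 (475 to 746), with intervals that overlap. With 1 library each, these values carry no test.

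Among the next genes by p, which did not pass, Clic1 had a log2 fold change of 1.49 (edgeR adjusted p = 0.1), S100a10 of 0.97 (0.111) and Gzma of 2.11 (0.118). Gzma encodes granzyme A and was at 280, 264, 0 and 0 CPM in PBS mice 1 to 4, against 682, 38.4, 1828, 558 and 774 CPM in mono-IL10. Mouse 2 of the mono-IL10 group was thus within the PBS range and the others above it. On the lower side stood Odc1 (−1.34), Maml2 (−1.04), the glucocorticoid receptor Nr3c1 (−1.09), Ncl (−0.85), Hspe1 (−0.85), the interferon regulatory factor Irf1 (−1.28), Elmo1 (−0.98), the TGF-beta receptor Tgfbr2 (−1.03) and Stat3 (−0.90), with edgeR adjusted p between 0.152 (Odc1) and 0.272 (Stat3).

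The 4 marker genes of the label did not pass in either direction. Cd8a was at 360, 423, 321 and 217 CPM in PBS and at 673, 730, 187, 593 and 660 CPM in mono-IL10 (log2 fold change 0.93, edgeR adjusted p = 0.272), and Cd8b1 had a log2 fold change of 0.84 (0.272). Ccr7 was at 120, 52.8, 402 and 272 CPM against 8.98, 230, 93.7, 5.02 and 0 CPM (log2 fold change −2.09, edgeR adjusted p = 0.303). Ccr7 thus spread widely within both groups, with mono-IL10 mice 2 and 3 inside the PBS range. Lef1 was at 280, 317, 241 and 272 CPM against 189, 192, 46.9, 221 and 45.5 CPM, with a log2 fold change of −0.62 (edgeR adjusted p = 0.616). Every mono-IL10 mouse was below the PBS mice of the fit, while PBS mouse 5, left out of it, had 0 UMIs of Lef1.

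Of 20 genes for naive T cell transcription factors and quiescence, 14 were tested and 0 passed, with 5 on the higher and 9 on the lower side and a median log2 fold change of −0.19, against 0.03 over all genes. Btg1, an antiproliferative gene, was at −0.19, Zfp36l2, an RNA-binding protein, at 0.03 and the transcription factor Ets1 at 0.14. Tcf7, Il7r and Klf2 were too low to test. Tcf7 was at 77.3 ± 71.4 CPM in PBS (n = 4) and 85.3 ± 45.3 in mono-IL10 (SD, n = 5), Il7r at 99.7 ± 115 and 173 ± 123, and Klf2, a factor that keeps T cells in circulation, at 228 ± 285 and 38.5 ± 31.1. For each of these, the spread among PBS mice was nearly as large as the mean or larger. Of 18 homing and retention receptors 10 were tested and 0 passed, 7 on the higher side (median 0.60), with the integrin Itga4 at 0.67, Itgb1 at −0.25 and the chemokine receptor Ccr2 at 1.0. S1pr1, the receptor for egress from lymph nodes, was at −0.44.

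Activation, memory and effector genes held 3 of the 7 genes that rose. Of 31 genes in this list 17 were tested, 3 passed as higher (Ccl5, Gzmb and S100a6, against 0.488% of all genes tested) and 13 lay on the higher side, with a median log2 fold change of 0.64. Over all genes 754 of 1434 lay on the higher side, with a median of 0.03. This and the other lists were drawn up with earlier results of these data known, and nothing particular to a list is read from its counts. Nkg7 was at 0.65 without passing (edgeR adjusted p = 0.146), Ly6a at 0.67 and Cd44, an adhesion receptor of activated T cells, at −0.51. The summed level of the list was 14648 ± 1786 CPM in PBS and 27902 ± 3509 CPM in mono-IL10 mice (SD, n = 4 and 5), to which Ccl5 gave the largest part. Genes of STAT5 feedback and of the target list named by the study had 1 of 8 tested passing, the same Gzmb, and 7 on the higher side (median 0.66), with Thy1 at 0.57. The list of inhibitory receptors also holds Tox, an exhaustion factor that is no receptor. Only Ctla4 (0.65) and Tox (1.83, edgeR adjusted p = 0.236) could be tested in it, and neither passed. Tox was at 120, 52.8, 0 and 0 CPM in PBS mice 1 to 4, from 4 UMIs in all. In mono-IL10 mice it was at 207, 211, 187, 176 and 159 CPM.

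All 15 actin and migration genes were tested. Actb and Tmsb4x passed, as did Cd52, which the list holds although it is no actin gene, against 0.488% of all genes. On the higher side lay 14 of 15 (754 of 1434 over all genes), and the median log2 fold change was 0.36 (0.03 over all genes). Tmsb10, a relative of Tmsb4x, was at 0.22. Summed over the list, PBS mice had 34954 ± 4331 CPM and mono-IL10 mice 49231 ± 7114 CPM (SD, n = 4 and 5).

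Genes of the T cell receptor and its proximal signaling had 19 of 20 tested and 0 passing, 15 on the higher side, with a median log2 fold change of 0.41. The phosphatase Ptprc was at 0.06 and Cd3d at 0.23. Immediate-early and stress genes had 8 of 20 tested, of which Hsp90aa1 passed as lower (0.0697% of all genes did) and 7 of 8 lay on the lower side (680 of 1434 over all genes), with a median of −0.69. Hspa8 was at −0.15 and Junb, an AP-1 subunit, at −0.62.

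The IL-10 receptor chains and the feedback genes Socs3 and Bcl3 were near the limit of detection. Il10ra had 0 UMIs in the 4 PBS mice, whose cells held 74780 UMIs in all, which allows up to 40.1 CPM at 3 counts. In mono-IL10 mice it had 3, 1, 2, 3 and 1 UMIs (35.5 ± 32.8 CPM, SD, n = 5), so no difference was detectable at this depth. Il10rb was at 43.6 ± 57.0 and 31.2 ± 33.0 CPM, and Socs3, a STAT3 feedback gene, at 36.8 ± 25.4 and 58.2 ± 43.4 CPM (n = 4 and 5). The STAT3-induced Bcl3 had 1 UMI in PBS and 5 in mono-IL10. Of 12 genes in the list 3 were tested and 0 passed, with Jak1 at −0.27, Stat3 at −0.90 and Il21r at 0.14. Stat3 was at 200, 634, 1445 and 761 CPM in the PBS mice, a wide range that takes in all 5 mono-IL10 mice.

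Survival and gamma-chain cytokine genes had 8 of 15 tested and 0 passing (3 higher, 5 lower, median −0.13), with Bcl2 at −0.81, the IL-2 receptor beta chain Il2rb at −0.26 and Bcl2l11 at 0.38. Interferon-stimulated genes had 6 of 26 tested and 0 passing (3 higher, 3 lower), with Ifitm1 at −0.95, Ly6e at 0.72 and Irf1 at −1.28. MHC class I genes had 10 of 12 tested and 0 passing (5 higher, 5 lower, median 0.01), with B2m at 0.22, H2-K1 at −0.17 and H2-D1 at 0.31. Gimap genes, GTPases of lymphocyte survival, had 6 of 8 tested and 0 passing (4 higher, median 0.43). Of the cell cycle genes 3 of 14 were tested, and 0 passed. Ribosomal protein genes split evenly, with 41 of 80 on the higher side, 0 passing and a median of 0.01, and of 10 mitochondrially encoded genes 3 were on the higher side and 0 passed (median −0.07).

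**Figure D5:**
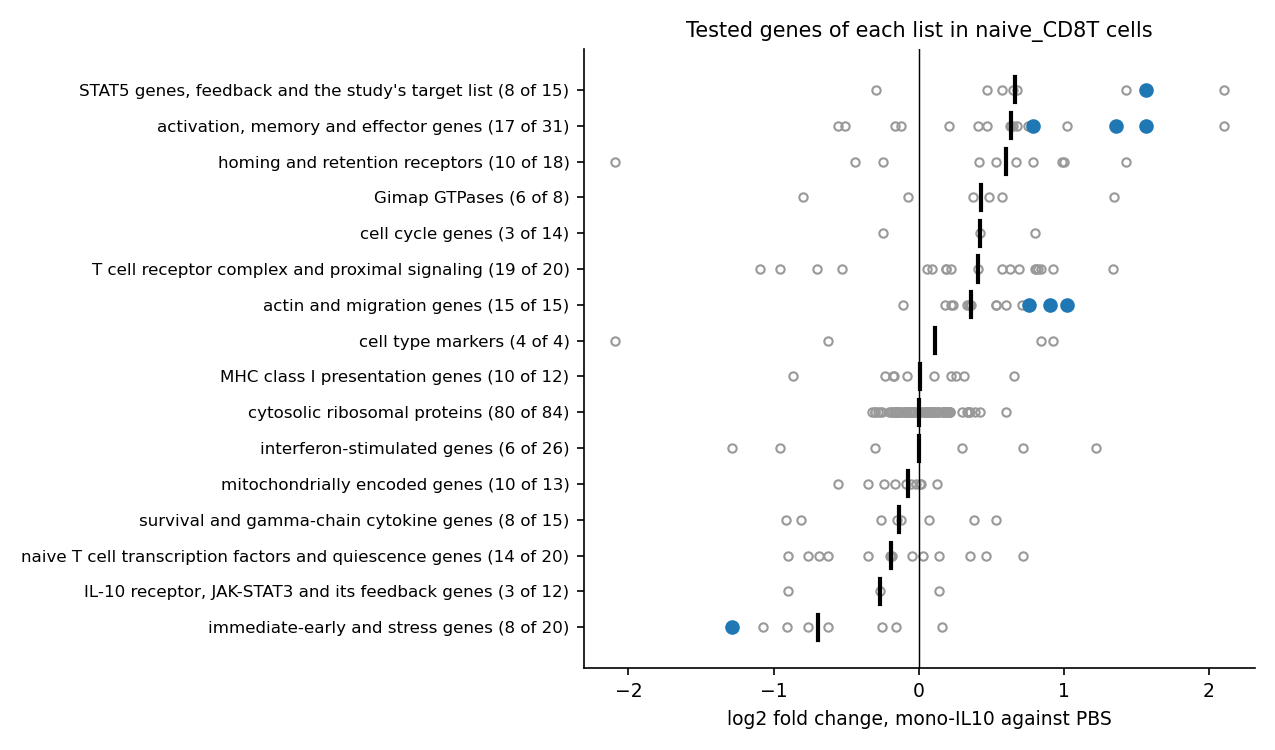
Log2 fold change (horizontal axis, mono-IL10 against PBS) of the tested genes of each list in naive_CD8T cells, each circle a gene, filled in blue where it passed at an edgeR adjusted p under 0.05, with a black bar at the median of the list and the number tested of all its genes beside its name. Most actin and effector genes lie right of 0, 7 of 8 immediate-early and stress genes left of it, and ribosomal genes lie around 0.

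Markers of other cells were summed by list, and the 4 markers of the label came to 1306 ± 367 CPM in PBS and 1599 ± 237 CPM in mono-IL10 mice on the same scale. The summed macrophage and monocyte list was at 695 ± 177 CPM in PBS mice (480 to 898) and 469 ± 213 CPM in mono-IL10 mice (141 to 728), with Csf1r and Cd68 at 0 in PBS. The NK list was at 273 ± 90.8 and 188 ± 87.0 CPM, with Ncr1 and Klrb1c at 0 in both groups, and the regulatory T cell list at 589 ± 274 and 450 ± 88.8 CPM, with Foxp3 at 0 in both (SD, n = 4 and 5). The lists for CD4 T cells, dendritic cells, neutrophils, tumor epithelium, stroma and erythroid cells were at a mean of 117 CPM or lower in each group. B cell markers were at 0 in PBS and at 58.6 ± 57.0 CPM in mono-IL10, and of the gamma-delta T cell list only Trdc could be analysed here. The part of these cells in the results was not tested.

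Whether the response of the naive_CD8T cells differed from that of other T cells was tested as an interaction in edgeR, with each mouse as a block. This fit scaled both cell sets together by TMM, so its differences need not equal those between separate fits of each set. Other T cells were all annotated cells outside naive_CD8T, NK, Cycling_NK and Cycling_T. Of 5900 genes 6 passed (0.102%), and 466 had a p under 0.05 before adjustment. In the other T cells alone, 13 of 6014 genes passed for mono-IL10 against PBS (0.216%).

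AW112010 went from 1119 ± 431 to 2923 ± 707 CPM in naive_CD8T cells and from 2057 ± 328 to 2548 ± 439 CPM in other T cells (n = 4 and 5, SD), a difference of the log2 effects of 1.41 (SE 0.26, edgeR adjusted p = 7.56e-05). Actb went from 2472 ± 391 to 4498 ± 1154 CPM in naive_CD8T cells and from 4330 ± 501 to 3920 ± 460 CPM in other T cells, a difference of 1.33 (SE 0.22, edgeR adjusted p = 4.59e-06). In the 4 PBS mice of the fit the means of both genes were lower in the naive_CD8T cells than in the other T cells. After mono-IL10 this was no longer the case. Ccl5 went from 1547 ± 601 to 2851 ± 1459 CPM in other T cells. Its log2 effect was 0.98 there and 1.36 in naive_CD8T cells, each set fitted alone. The interaction fit gave a larger difference than these effects do, 0.90 (SE 0.21, edgeR adjusted p = 0.0206). The call for Ccl5 was lost in 6 of 11 other settings, among them a minimum count of 10 and library totals without TMM.

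Ifitm1, an interferon-induced membrane protein, had the opposite sign. It went from 854 ± 912 to 331 ± 246 CPM in naive_CD8T cells and from 169 ± 143 to 658 ± 483 CPM in other T cells, a difference of −2.62 (SE 0.39, edgeR adjusted p = 1.16e-07). The spread among PBS mice was as large as their mean, and without PBS mouse 3 the call was lost (edgeR adjusted p = 0.305). The remaining genes were Cdk8, a Mediator kinase, with a difference of 1.49 (SE 0.35, edgeR adjusted p = 0.0291), and Cmss1 with 1.38 (SE 0.34, edgeR adjusted p = 0.0423). Their calls were lost in 6 and 8 of the 11 settings. The makeup of the other T cells by cluster also changed with treatment, and its part in these differences was not tested.

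Several of these genes were higher in the mono-IL10 library in other clusters too. In NK cells, Gzmb was at 957 CPM in PBS and 1965 in mono-IL10, AW112010 at 3594 and 5228, Cd52 at 2932 and 4039, Tmsb4x at 13017 and 17519 and Actb at 3463 and 4564. Actb was also higher in Cycling_T cells, at 4700 and 6902 CPM, which like NK cells are not among the other T cells of the interaction. Ccl5 was at 1685 and 4722 CPM in Cycling_T cells, at 47.3 and 1837 in act_CD4T cells and at 758 and 553 in Treg cells. In the naive_CD4T cells, summed over 19 PBS and 29 mono-IL10 cells with a mouse, Ccl5 was at 4873 CPM (exact 95% Poisson interval 4240 to 5573) and 10304 CPM (9583 to 11066), Cd52 at 1762 and 3217 CPM and Actb at 2700 and 3244 CPM. Hsp90aa1 was at 1213 and 491 CPM in these cells. The makeup of this cluster moved as well, since a Cd8a or Cd8b1 UMI was found in 4 of its 30 PBS cells (13.3%) and in 20 of its 42 mono-IL10 cells (47.6%), and its part was not tested. These sums carry no test.

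The IL10/2-Trikine cells were only 2. The cell of mouse 1 had 2809 UMIs with 2 of Cd8b1, 24 of Ccl5, 4 of Nkg7, 12 of Cd52 and 0 of Ccr7 and Gzmb. The cell of mouse 2 had 2097 UMIs with 1 each of Cd8a and Cd8b1, 6 of Ccr7, 2 of Il7r, 4 of Nkg7 and 0 of Ccl5. The first thus carried Ccl5 without Ccr7 and the second the reverse, and no level of this group can be given from them.

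Among whole libraries, 408 to 700 barcodes were shared between a pair, 0 of them as naive_CD8T in both, and 7 naive_CD8T barcodes also occurred as a barcode of another library. No mouse was assigned to 18.4% of PBS and 24.4% of mono-IL10 naive_CD8T cells.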

How the data were processed

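The authors ran Cell Ranger 9.0.1 on 10x GEM-X 5' libraries (GRCm39, filtered barcodes) and deposited matrices of UMI counts for 34187 gene features and 5 hashtags, without normalization. Their table, made with Seurat 5.1.0, gives for each cell deposited counts of UMIs and genes, the mitochondrial percent, the mouse of origin and 1 of 12 cluster names. It holds cells with at least 1000 genes and at most 10% mitochondrial UMIs that were hashtag singlets or negative, so doublets called by hashtag had been removed. The authors left T cell receptor and immunoglobulin V genes out of the T cell clustering and used DESeq2 1.46.0 for pooled counts. A further 7858 cells of a group with no sample are not used here.

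Members and gene lists were chosen with earlier results of these data known. Mice were the replicates. Hashtags name mice within a library. Exact two-sided permutation tests compared the per-mouse shares (scipy 1.17.1, numpy 2.4.6, pandas 2.3.3, Python 3.11.15), adjusted by Benjamini-Hochberg. Singlets for the denominator were called with HTODemux of Seurat 5.3.0 at a quantile of 0.99. Counts were summed per mouse with at least 5 cells and tested with edgeR 4.0.16 (R 4.3.3, TMM, filterByExpr with a minimum count of 3). DESeq2 1.42.0 was an alternative. CPM are UMIs of a gene per 1000000 gene UMIs of the summed cells. Summed depth was 74780 UMIs over the 4 PBS mice. Intervals are exact (Clopper-Pearson or Poisson) at 95% and cover counting error only. The floor for a count of 0 was 3 counts. Ratios between clusters used 20 CPM added and a minimum of 100 CPM.

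Named were the 4 markers, up to 10 genes in each direction by lowest p (said where they did not pass), the 3 tested genes of highest level in each list with any gene that passed, and the genes of the treatment and cell type (Il10ra, Il10rb, Stat3, Socs3, Bcl3, Il7r, Tcf7, Klf2, S1pr1, Cd44, Il2rb, Ly6a, Ccl5, Gzmb). Genes of the interaction, of leading cluster genes and of the 2 cells of IL10/2-Trikine were named after their values were seen. Of the genes that this rule names, 2 are not reported here. Scripts were tested on simulated data.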

Additional observations from a re-analysis of the deposited data

Results flagged for a closer look

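Among 63 groups of 4 or 5 mice examined, 3 had a mouse far from the others of its group, where chance gives about 1 in 20. Mono-IL10 mouse 5 had the highest median of UMIs per naive_CD8T cell, at 4576. Mono-IL10 mouse 3 had the highest Actb level, at 6514 CPM, and the lowest Cd8a level, at 187 CPM. Mouse 3 contributed 6 naive_CD8T cells, the fewest of its group.

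The effect of mono-IL10 differed between naive_CD8T cells and other T cells, by the edgeR interaction test, for 6 genes: by −2.62 on the log2 scale for Ifitm1, 1.33 for Actb, 1.41 for AW112010, 0.90 for Ccl5, 1.49 for Cdk8 and 1.38 for Cmss1. Over 11 other settings the call was kept in all 11 for AW112010 and Actb, in 10 for Ifitm1, in 5 each for Ccl5 and Cdk8 and in 3 for Cmss1. Without TMM only AW112010, Actb and Ifitm1 passed.

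The deposited matrices also count a feature named TRP1_High_beta, which no comparison above used. In the mono-IL10 library it was at 94.4 CPM in naive_CD8T cells, from 53 UMIs in 39 of 160 cells (24.4%). In PBS it was at 30.9 CPM, from 3 UMIs in 3 of 38 cells. The NK cells were at 12.9 CPM in PBS and 17.6 CPM in mono-IL10, and all other annotated T and NK cells at 26.4 and 45.6 CPM. The features TRP1_High_alpha and TRP1_Low_beta had 0 UMIs in the naive_CD8T cells of both libraries. TRP1_Low_alpha was at 30.9 CPM in those of PBS, from 3 UMIs, and at 7.13 CPM in those of mono-IL10, from 4 UMIs. What sequences these features stand for is not given in the sources used here.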

How the results depend on the processing

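With 2 to 9 naive_CD8T cells per PBS mouse, low genes could not be tested and a missed difference says little. No paired analysis was possible because the labels give no replicate numbers and a hashtag number only names a mouse within its library. A fit of mice with at least 10 cells could not be made, since no PBS mouse had as many.

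Of the 9 comparisons of shares, all kept their direction without any 1 mouse, with cells of at least 1500 genes, with repeated hashtag calls, with singlets that had a Ptprc UMI and, chosen after seeing the data, at matched median UMIs per barcode of the libraries, as far as each setting applied. With cells of at least 1500 genes, IL10/2-Trikine minus PBS was −2.53 points of T and NK cells, −3.69 points of T cells and −0.138 per 1000 singlets, none past the threshold (exact permutation p = 0.444). Leaving out 1 mouse, mono-IL10 minus PBS among T and NK cells ranged from 5.94 to 9.76 points and lost its call without PBS mouse 3, 4 or 5 or mono-IL10 mouse 1, 3 or 4 (largest exact permutation adjusted p 0.0635). The UMI difference ranged from 956 to 1307 and the gene difference from 260 to 339. Both lost their call without any 1 PBS mouse, where 5 mice against 3 allow no exact permutation p below 0.0357 (adjusted 0.0536). Requiring 2 Cd8 UMIs moved the gate below 1000 genes to 1.61 per 1000 in PBS and 2.34 in IL10/2-Trikine.

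Against 8 genes past the threshold, 33 passed with no filter on low counts (33 higher, 0 lower, of 11226 tested, 7 shared with the 8), where the median log2 fold change of all genes was 0.74, so those changes are to be read against that shift. With cells reduced to 1500 UMIs 14 passed, and leaving out 1 mouse gave 7 to 15, with 15 without PBS mouse 1 or 2 and 13 without PBS mouse 4. DESeq2 gave 7. Ccl5, AW112010 and Cd52 passed in all 17 alternatives, Tmsb4x and Actb in 16, Gzmb in 15, S100a6 in 14 and Hsp90aa1 in 13. The interaction gave 3 genes with a minimum count of 10, 3 without TMM and 4 to 17 without 1 mouse, 17 without mono-IL10 mouse 3. Signs turned for 5 genes that never passed in the main comparison: in cells with a Cd8 UMI Nr3c1 (0.0236), Stat3 (0.0865) and S1pr1 (0.27), without the filter S1pr1 (0.017) and Il2rb (0.18), and without PBS mouse 2 Cd44 (0.0685, over a range of −0.617 to 0.0685 when 1 mouse was left out). The cause of these changes was not tested.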
